A study of Mus musculus with 18 samples.

Results

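The carboxylesterases described here are 10 of the 37303 genes in the table of liver expression, chosen by gene symbol: *Ces1c*, *Ces1d*, *Ces1e*, *Ces1f*, *Ces1g*, *Ces2a*, *Ces2c*, *Ces2e*, *Ces3a* and *Ces3b*. The symbols were chosen with earlier results of these data known, so shares of all genes set beside their counts are description only. Poly-A RNA was sequenced from the livers of 18 mice, 3 in each of 6 groups, to ask how the liver responds to asparaginase (ASNase), an enzyme drug that depletes blood asparagine and glutamine, when GCN2 or ATF4 is absent. GCN2 is the eIF2 kinase that senses scarce amino acids, and ATF4 is a transcription factor made in larger amounts once eIF2 is phosphorylated. The groups were wild type mice given the excipient, phosphate buffered saline (WT PBS), wild type mice given asparaginase (WT ASNase), mice with both copies of *Gcn2* deleted under either injection (*Gcn2*-/- PBS and *Gcn2*-/- ASNase) and mice with both copies of *Atf4* deleted under either injection (*Atf4*-/- PBS and *Atf4*-/- ASNase). All mice were on the C57BL/6J background for at least 8 generations, each received 8 daily injections into the peritoneum, asparaginase was dosed at 3 IU per gram body weight, and livers were taken 7.5 h after the last injection by the labels. The age is given as 8 to 16 weeks in a label field and with a narrower upper limit in the series design. Both deletions were whole-body deletions, so the liver was not the only tissue without the gene. Males made up 1 of 3 mice in WT PBS and in both *Gcn2*-/- groups, and 2 of 3 in WT ASNase and in both *Atf4*-/- groups, so the sexes were matched between injections within each knockout strain but not within WT.

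Carboxylesterases are serine hydrolases that cleave ester, amide and thioester bonds, and the liver holds more of them than most organs. Most sit in the lumen of the endoplasmic reticulum, where they inactivate or activate drugs and pesticides and where some of them mobilize stored triacylglycerol for very low density lipoprotein (VLDL). Mice carry more Ces1, Ces2 and Ces3 genes than humans, the copies having arisen by tandem duplication.

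All 10 genes lie on chromosome 8 in 2 clusters (GRCm38, GENCODE annotation). The minus strand of the first cluster carries *Ces1c* (chr8:93099015-93131283), *Ces1d* (chr8:93166068-93197838), *Ces1e* (chr8:93201218-93229619), *Ces1f* (chr8:93256236-93279747) and *Ces1g* (chr8:93302369-93337308). On the plus strand of the second are *Ces2a* (chr8:104734003-104741634), *Ces2c* (chr8:104847068-104854483), *Ces2e* (chr8:104926260-104934672), *Ces3a* (chr8:105048601-105058413) and *Ces3b* (chr8:105083753-105093929). The last 30 bases of each coding sequence are shown because they separate the genes by the sorting signal of their product. Capitals mark the 12 bases, 4 codons, before the stop codon, taken from the GENCODE transcripts on GRCm38 and written 5′ to 3′.
Ces1c: gaccctactgaacacACAGAACACAAAtga
Ces1d: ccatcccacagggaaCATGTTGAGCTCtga
Ces1e: caactgccgacagaaCACACTGAGCTGtga
Ces1f: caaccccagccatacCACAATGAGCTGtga
Ces1g: tcatcccatagggaaCATGTTGAACTGtga
Ces2a: ggttctcaggacaagCATGCAGAGCTGtag
Ces2c: gcttctcaggacaagCACAGGGAGCTTtag
Ces2e: gggtctcaggagaggCACAAAGAGTTGtag
Ces3a: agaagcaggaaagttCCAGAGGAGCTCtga
Ces3b: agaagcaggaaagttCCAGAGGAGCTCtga

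In 7 of the 10 genes these codons read histidine, any residue, glutamate and leucine, the tail known to hold a protein in the endoplasmic reticulum. *Ces1c*, which encodes the esterase of mouse plasma, did not have the tail. *Ces3a* and *Ces3b* shared 1 identical end, in which the histidine codon was absent and the glutamate and leucine codons were present. Over their whole coding sequence *Ces3a* and *Ces3b* were 95.3% identical, the 3 Ces2 genes were 82.6% to 83.8% identical to each other, and the 5 Ces1 genes 73.6% to 81.6%.

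Upstream sequence was available for 7 of the 10 genes in the RefSeq promoter table (GRCm38.p6), which spans 250 bases before to 50 bases after the start. The sequences of *Ces1g* and *Ces3b* are shown as examples from the 2 clusters, because they are the only members in which any searched motif was found. Each line holds the 250 bases before the RefSeq start on the strand of the gene, and capitals mark the motif matches. The windows are chr8:93337210-93337459 for *Ces1g* and chr8:105083505-105083754 for *Ces3b*. The GENCODE start of *Ces1g*, at chr8:93337308, lies inside its window, so the *Ces1g* match is downstream of that start. For *Ces3b* the GENCODE start, at chr8:105083753, lies at the end of the window.
Ces1g: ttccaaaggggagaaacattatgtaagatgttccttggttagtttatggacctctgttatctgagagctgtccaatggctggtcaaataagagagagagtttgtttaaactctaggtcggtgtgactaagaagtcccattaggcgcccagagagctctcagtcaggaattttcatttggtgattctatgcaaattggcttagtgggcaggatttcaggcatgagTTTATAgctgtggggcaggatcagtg
Ces3b: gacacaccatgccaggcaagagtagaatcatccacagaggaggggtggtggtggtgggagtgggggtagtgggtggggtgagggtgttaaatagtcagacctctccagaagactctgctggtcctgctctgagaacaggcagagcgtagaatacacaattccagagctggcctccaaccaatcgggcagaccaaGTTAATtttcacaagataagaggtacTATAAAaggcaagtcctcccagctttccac

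Motifs were searched on both strands, and no match overlapped another. The C/EBP-ATF composite site TGATGNAA, a known binding form for ATF4, was in 0 of 7 member promoters and in 3.97% of the 32851 promoters in the table. The antioxidant response element core TGACNNNGC was in 0 of 7 against 12.4% of all, and the HNF4A site CAAAGTCCA in 0 of 7 against 0.475%. After these had been searched, the TATA box TATAAA was added and was found in 2 of 7 (*Ces1g* on the opposite strand, and *Ces3b*) against 13.6% of all, and the HNF1 core site GTTAAT in 1 of 7 (*Ces3b*) against 7.10%. These counts describe only these windows.

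Expression was given as FPKM, a fragment count scaled to the length of the transcript and to the size of the library, so that levels can be compared between genes. Cuffdiff made 1 value per group from its 3 libraries together, with the lower and upper bound of a confidence interval and a status. There was therefore no value per mouse, no SD and no replicate check of a difference, and the interval is the error used throughout. All 60 member values had the status OK. The half-width of a member's interval was 41.5% to 142% of the value, against medians of 51.3% to 54.2% over all genes with FPKM over 3, and an interval whose lower bound is 0 is wider above the value than below it. Fewer hepatocytes and less RNA per hepatocyte cannot be told apart in whole liver.

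In livers of PBS-treated WT mice the carboxylesterases were abundant, and 8 of the 10 were over 100 FPKM. *Ces1c* was highest at 1831 FPKM (interval 373 to 3288), the 47th highest value in the table, and *Ces2c* lowest at 61.2 FPKM (12.1 to 110.2). Between them came *Ces3a* at 707, *Ces1d* at 435, *Ces1f* at 272, *Ces2a* at 256, *Ces3b* at 190.4, *Ces2e* at 112, *Ces1g* at 105 and *Ces1e* at 91.5 FPKM. Every neighbouring pair in this order had overlapping intervals. The summed level of the 10 genes was 4060.1, 3596 and 3596 FPKM under PBS in WT, *Gcn2*-/- and *Atf4*-/- livers and 3228, 937 and 461 FPKM after ASNase. The median member went from 223 FPKM in WT PBS to 172 in WT ASNase, from 226 to 39.7 in *Gcn2*-/- livers and from 209 to 8.83 in *Atf4*-/- livers. After ASNase only *Ces1c* was still over 100 FPKM in the *Gcn2*-/- and *Atf4*-/- groups.

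**Figure D1:**
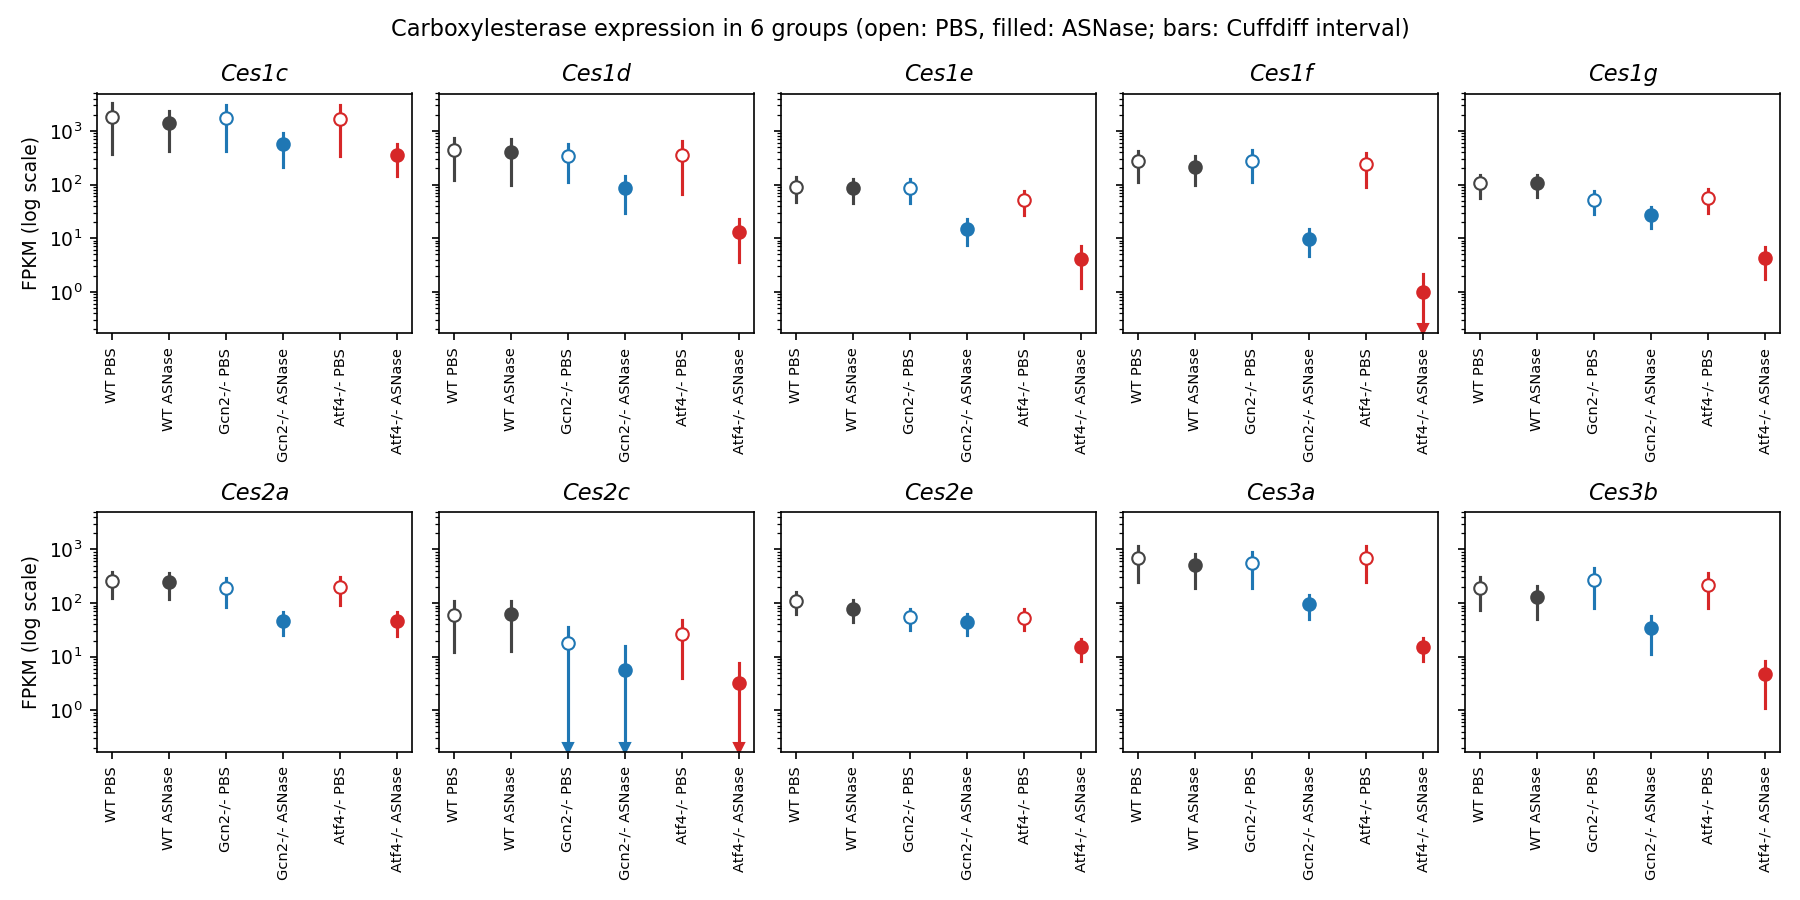
FPKM of each carboxylesterase (vertical axis, log scale) in the 6 groups (horizontal axis), with PBS as open and ASNase as filled circles, bars for the Cuffdiff interval and a downward triangle where the lower bound lies below the axis. The filled red circles (*Atf4*-/- ASNase) are the lowest value of every gene, from 355 FPKM for *Ces1c* down to 0.984 for *Ces1f*.

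Differences between groups were taken on the scale of log2(FPKM + 0.1), and a gene was eligible when neither value was 0 or lacked the status OK and at least 1 of them exceeded 3 FPKM. A call of higher or lower further needed an absolute log2 difference over 1.5, which is 2.83-fold, and 2 intervals with no overlap. The error of a log2 difference joins the 2 intervals, and ratios are ratios of FPKM. It is the root of the summed squares of both half-widths, each divided by its value, turned into log2 units. This error is symmetric, so where a lower bound is 0 it understates the range of the difference. This is a description of 2 group values and not a test.

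The comparison of ASNase with PBS in WT mice asks what the drug does to these genes with GCN2 and ATF4 intact. Of the 10 carboxylesterases 0 were called in either direction, against 0.881% of 9084 eligible genes, with 0.121% called lower. The log2 differences lay between -0.58 (*Ces3b*) and 0.01 (*Ces2c*), 9 of 10 were negative, and their median was -0.21 against -0.01 over all eligible genes. All 10 pairs of intervals overlapped. Since 2 of 3 mice were male after ASNase and 1 of 3 under PBS, sex and treatment cannot be told apart in WT.

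In *Gcn2*-/- livers 5 of the 10 carboxylesterases fell after ASNase, namely *Ces1e*, *Ces1f*, *Ces2a*, *Ces3a* and *Ces3b*, against 2.13% of 9218 eligible genes called lower. With no condition on the intervals 8 were lower, against 3.57% of eligible genes by that rule. All 10 differences were negative, with a median of -2.005 against 0.02 over all eligible genes. In *Atf4*-/- livers 8 of the 10 fell, all but *Ces1c* and *Ces2c*, against 4.63% of 9485 eligible genes called lower. All 10 were again negative, with a median of -3.66 against 0.08 over all eligible genes. The *Gcn2*-/- and *Atf4*-/- comparisons share no group.

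**Figure D2:**
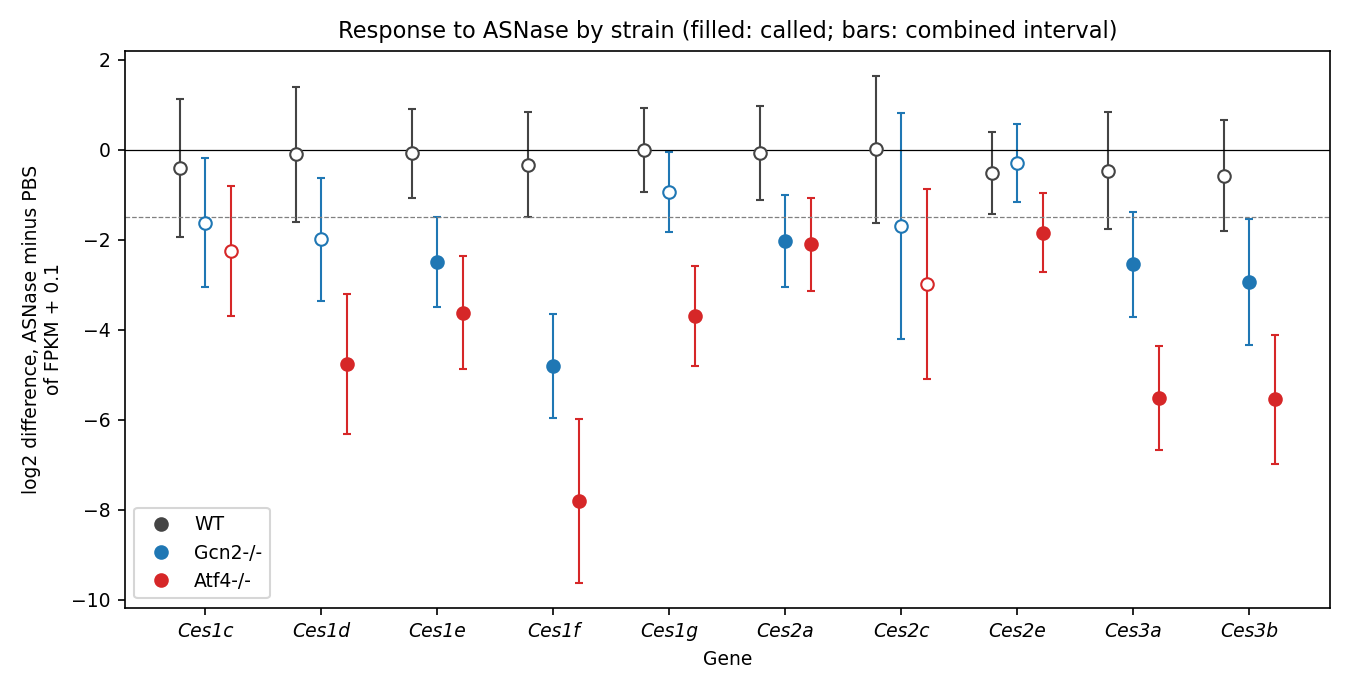
Log2 difference of FPKM + 0.1, ASNase minus PBS (vertical axis), for each carboxylesterase (horizontal axis) in WT, *Gcn2*-/- and *Atf4*-/- livers. Filled circles were called, bars are the error joined from both intervals, and the dashed line marks the limit of the calling rule on the lower side. The WT values lie near 0, and the *Atf4*-/- value is the lowest of the 3 for every gene.

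*Ces1d*, the triacylglycerol hydrolase of the hepatocyte endoplasmic reticulum, which supplies lipid for VLDL, stood at 435 FPKM under PBS and 406 after ASNase in WT, at 348 and then 87.8 without *Gcn2*, and at 355 and then 13.0 without *Atf4*. The *Atf4*-/- ASNase value stood apart from the other 5, its upper bound of 22.3 FPKM lying below their lowest lower bound of 29.9. In *Atf4*-/- livers *Ces1d* fell by 4.76 ± 1.56 on the log2 scale, a 27.3-fold lower FPKM. In *Gcn2*-/- livers the difference of -1.98 ± 1.36 was not called, since the intervals (29.9 to 145.6 and 112.2 to 583) overlapped.

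*Ces1f*, a further triacylglycerol hydrolase of the endoplasmic reticulum, had the lowest log2 difference of the 10 genes in both knockout strains. It was found at 272, 277 and 240.0 FPKM under PBS in WT, *Gcn2*-/- and *Atf4*-/- livers and 217, 9.85 and 0.984 FPKM after ASNase. Both ASNase-treated knockout groups lay below all other groups, with no overlap of intervals. In *Gcn2*-/- livers *Ces1f* fell by 4.80 ± 1.15, 28.2-fold, which placed it 13th from the lowest of all eligible genes. In *Atf4*-/- livers it fell by 7.79 ± 1.82, the 4th lowest difference among eligible genes. The interval of the last value was 0 to 2.17 FPKM, so the ratio of 244 has no upper limit, and the ratio of the nearest bounds was 42.1.

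*Ces1g*, whose loss in mice is known to raise hepatic lipogenesis and plasma lipids, was measured at 105 FPKM under PBS and 105 after ASNase in WT, at 51.3 and then 26.7 without *Gcn2*, and at 57.1 and then 4.32 without *Atf4*. The 2 WT groups were the highest, and the *Atf4*-/- ASNase interval (1.73 to 6.91) lay below all others. *Ces1g* fell by 3.69 ± 1.11 in *Atf4*-/- livers, 13.2-fold, and was not called in *Gcn2*-/- livers (-0.94 ± 0.89).

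In response to ASNase the Ces3 pair moved together and by similar amounts within each strain. *Ces3a* stood at 707, 553 and 707 FPKM under PBS in WT, *Gcn2*-/- and *Atf4*-/- livers and 514, 94.7 and 15.4 FPKM after ASNase. *Ces3b* was found at 190.4 FPKM under PBS and 128 after ASNase in WT, at 264 and then 34.6 without *Gcn2*, and at 222 and then 4.67 without *Atf4*. In both genes *Gcn2*-/- ASNase lay between the PBS groups and *Atf4*-/- ASNase. *Ces3a* fell by 2.54 ± 1.16 in *Gcn2*-/- livers (5.84-fold) and fell by 5.52 ± 1.15 in *Atf4*-/- livers (46.0-fold). *Ces3b* fell by 2.93 ± 1.40 (7.62-fold) and fell by 5.54 ± 1.43 (47.5-fold). Of all windows of 100 bases, the length of a read, 9.09% in the *Ces3a* transcript and 7.68% in the *Ces3b* transcript were identical in the other gene. A part of their reads could therefore not be assigned to either by sequence alone. Only exact matches were counted, here and for the other genes, so windows that differ at a few bases are outside these shares.

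*Ces1e* encodes egasyn, which anchors beta-glucuronidase in the endoplasmic reticulum. It was measured at 91.5, 85.4 and 52.3 FPKM under PBS in WT, *Gcn2*-/- and *Atf4*-/- livers and 86.5, 15.1 and 4.17 FPKM after ASNase. As for the Ces3 pair, *Gcn2*-/- ASNase lay above *Atf4*-/- ASNase and below the 4 other groups. *Ces1e* fell by 2.50 ± 0.995 in *Gcn2*-/- livers (5.67-fold) and fell by 3.62 ± 1.25 in *Atf4*-/- livers (12.5-fold). *Gusb*, the gene of beta-glucuronidase, was not called in either strain and stood at 11.8 FPKM in *Atf4*-/- PBS and 7.87 in *Atf4*-/- ASNase.

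*Ces1c*, the secreted esterase of plasma, was the highest of the 10 genes in every group, and among the Ces1 genes its ratio of PBS to ASNase was the smallest in *Atf4*-/- livers (4.75). It stood at 1831 FPKM under PBS and 1389 after ASNase in WT, at 1756 and then 572 without *Gcn2*, and at 1686 and then 355 without *Atf4*. Both ASNase-treated knockout groups had the lowest values, but their intervals (209 to 934, and 143 to 567) overlapped those of the PBS groups (424 to 3088, and 335 to 3036). Its log2 difference was -1.62 ± 1.43 with *Gcn2* deleted and -2.25 ± 1.44 with *Atf4* deleted, and *Ces1c* was called in none of the 9 comparisons of groups. A share of 1.39% of its windows was identical in *Ces1b*.

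The products of the Ces2 genes hydrolyse drugs, pyrethroids and acylglycerols. *Ces2a* was found at 256, 188 and 196 FPKM under PBS in WT, *Gcn2*-/- and *Atf4*-/- livers and 244, 46.2 and 45.6 FPKM after ASNase. Both ASNase-treated knockout groups lay below the other 4 groups. *Ces2a* fell by 2.02 ± 1.03 in *Gcn2*-/- livers (4.07-fold) and fell by 2.10 ± 1.03 in *Atf4*-/- livers (4.31-fold), and the difference between these groups after ASNase was -0.02, with an interval from -0.97 to 0.92. Of its windows 10.7% were identical in the predicted gene *Gm7208*.

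*Ces2e*, the pyrethroid hydrolase, was measured at 112 FPKM under PBS and 78.4 after ASNase in WT, at 54.8 and then 44.8 without *Gcn2*, and at 53.8 and then 14.95 without *Atf4*. The *Gcn2*-/- groups overlapped each other, and *Atf4*-/- ASNase (8.45 to 21.5) lay below all others. It was the only member with a *Gcn2*-/- response smaller in size than its WT response (-0.29 ± 0.87 against -0.51 ± 0.91). In *Atf4*-/- livers *Ces2e* fell by 1.84 ± 0.88, 3.60-fold, the smallest fall among the 8 called genes.

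*Ces2c*, an acylglycerol lipase related to human CES2, stood at 61.2, 18.1 and 26.2 FPKM under PBS in WT, *Gcn2*-/- and *Atf4*-/- livers and 61.5, 5.57 and 3.23 FPKM after ASNase. Its intervals were, relative to the value, the widest of the 10 genes in every group and reached 0 in both *Gcn2*-/- groups and in *Atf4*-/- ASNase. Neither the difference in *Gcn2*-/- livers (-1.69 ± 2.51) nor that in *Atf4*-/- livers (-2.98 ± 2.11) was called. Of its windows 16.0% were identical in the pseudogene *Ces2d-ps* or the predicted genes *Gm8798* and *Gm6831*, the largest share among the 10 genes. Whether this bears on the width of the intervals was not tested.

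The comparison between strains under PBS asks whether the deletions alone alter these genes. No member was called in *Gcn2*-/- PBS against WT PBS, where 1.04% of eligible genes were called in either direction, in *Atf4*-/- PBS against WT PBS (1.12%) or in *Atf4*-/- PBS against *Gcn2*-/- PBS (0.976%), and with no condition on the intervals 1 (*Ces2c*) was called in the first of these, against 2.03% of eligible genes by that rule. The median member differed from WT by -0.34 in both *Gcn2*-/- and *Atf4*-/- livers, on the log2 scale. *Ces2c*, *Ces2e* and *Ces1g* were lower in both strains, with log2 differences in *Gcn2*-/- livers of -1.75, -1.03 and -1.03, and in *Atf4*-/- livers of -1.22, -1.05 and -0.88. Both comparisons share WT PBS, and the intervals of each pair overlapped. *Ces3b* was higher than in WT PBS by 0.47 in *Gcn2*-/- and by 0.22 in *Atf4*-/- livers, again within the intervals. Males were 2 of 3 in *Atf4*-/- PBS and 1 of 3 in the other PBS groups, so sex and strain cannot be told apart in both comparisons with *Atf4*-/- PBS.

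After ASNase 5 of 10 genes were called lower in *Gcn2*-/- than in WT livers, namely *Ces1e*, *Ces1f*, *Ces1g*, *Ces2a* and *Ces3a*, against 2.59% of all eligible genes called lower. It was 8 with no condition on the intervals, against 4.37% of eligible genes by that rule, and 8 with the combined interval of the difference, against 3.16%. *Ces3b*, at 34.6 FPKM in *Gcn2*-/- ASNase and 128 in WT ASNase, was not among them, since the intervals (11.3 to 57.9 and 51.0 to 204) overlapped. *Atf4*-/- ASNase was called lower than WT ASNase in 9 of 10 genes, all but *Ces1c*, with 5.66% called lower among all eligible genes. *Atf4*-/- ASNase was called lower than *Gcn2*-/- ASNase in 7 of 10, against 2.29% of all eligible genes, the exceptions being *Ces1c*, *Ces2a* and *Ces2c*. The 3 comparisons share their groups pairwise. Males were 1 of 3 in *Gcn2*-/- ASNase and 2 of 3 in the other 2 groups, so sex and strain cannot be told apart where *Gcn2*-/- ASNase is compared with either. The 7 differences lay between -1.58 (*Ces2e*) and -3.20 (*Ces1f*).

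The response itself was then set between strains, as the difference of 2 log2 differences with the errors of all 4 values joined. The *Gcn2*-/- response was more negative than the WT response by more than this error in 5 of 10 genes (*Ces1e*, *Ces1f*, *Ces2a*, *Ces3a* and *Ces3b*), against 3.32% of 8650 genes eligible in both strains. For *Atf4*-/- against WT it was so in 9 of 10, all but *Ces1c*, against 6.02% of 8770 genes. For *Atf4*-/- against *Gcn2*-/- it was so in 6 of 10 (*Ces1d*, *Ces1f*, *Ces1g*, *Ces2e*, *Ces3a* and *Ces3b*), against 3.27% of 8911 genes, with differences from -1.55 for *Ces2e* to -2.99 for *Ces1f*. The comparisons with WT share the WT groups. For *Ces2a* the difference of responses was -0.08 ± 1.45. Across the 10 genes the *Gcn2*-/- and *Atf4*-/- responses had a Pearson correlation of 0.85 and a Spearman correlation of 0.76, and over 8911 genes eligible in both strains the Pearson correlation was 0.65. The points are genes that share libraries and in part sequence, and are not replicates.

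**Figure D3:**
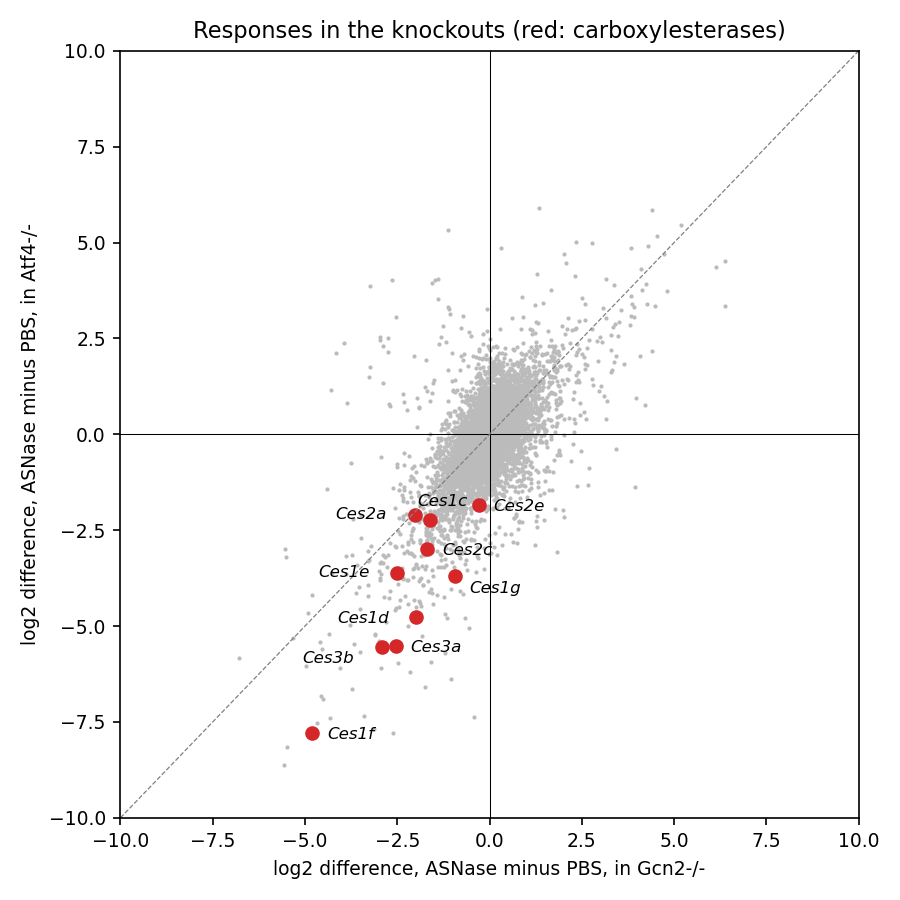
Log2 difference of FPKM + 0.1 after ASNase in *Gcn2*-/- livers (horizontal axis) and *Atf4*-/- livers (vertical axis) for 8911 genes eligible in both strains (grey) and the 10 carboxylesterases (red). The dashed line marks equal responses. All 10 red points lie below 0 on both axes and below the line, with *Ces2a* closest to it.

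Of the other carboxylesterase genes of both clusters, most were too low to be eligible. Of 10 listed (*Ces1a*, *Ces1b*, *Ces1h*, *Ces2b*, *Ces2d-ps*, *Ces2f*, *Ces2g*, *Ces2h*, *Ces4a* and *Ces5a*), only *Ces1b* and *Ces2g* were eligible in all 3 comparisons of ASNase with PBS, and neither was called. *Ces1b*, the neighbour of *Ces1c*, was found at 47.7 FPKM under PBS and 46.5 after ASNase in WT, at 49.9 and then 18.1 without *Gcn2*, and at 38.3 and then 17.3 without *Atf4*. *Ces2g*, which lies between *Ces2e* and *Ces3a*, was at 17.7, 16.2, 12.3, 13.9, 15.1 and 13.0 FPKM in the same order. *Ces4a*, next to *Ces3b*, was called higher in *Atf4*-/- livers, from 1.18 FPKM under PBS to 4.68 after ASNase, and passed the FPKM minimum only through that last group. It was at 0.940 and 0.375 FPKM in the WT groups and 1.02 and 0.378 FPKM in the *Gcn2*-/- groups and was not eligible there. Among 18 protein-coding genes of other families within 200 kb of a member, 8 were eligible in the *Gcn2*-/- and in the *Atf4*-/- comparison, and 0 were called in either.

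**Figure D4:**
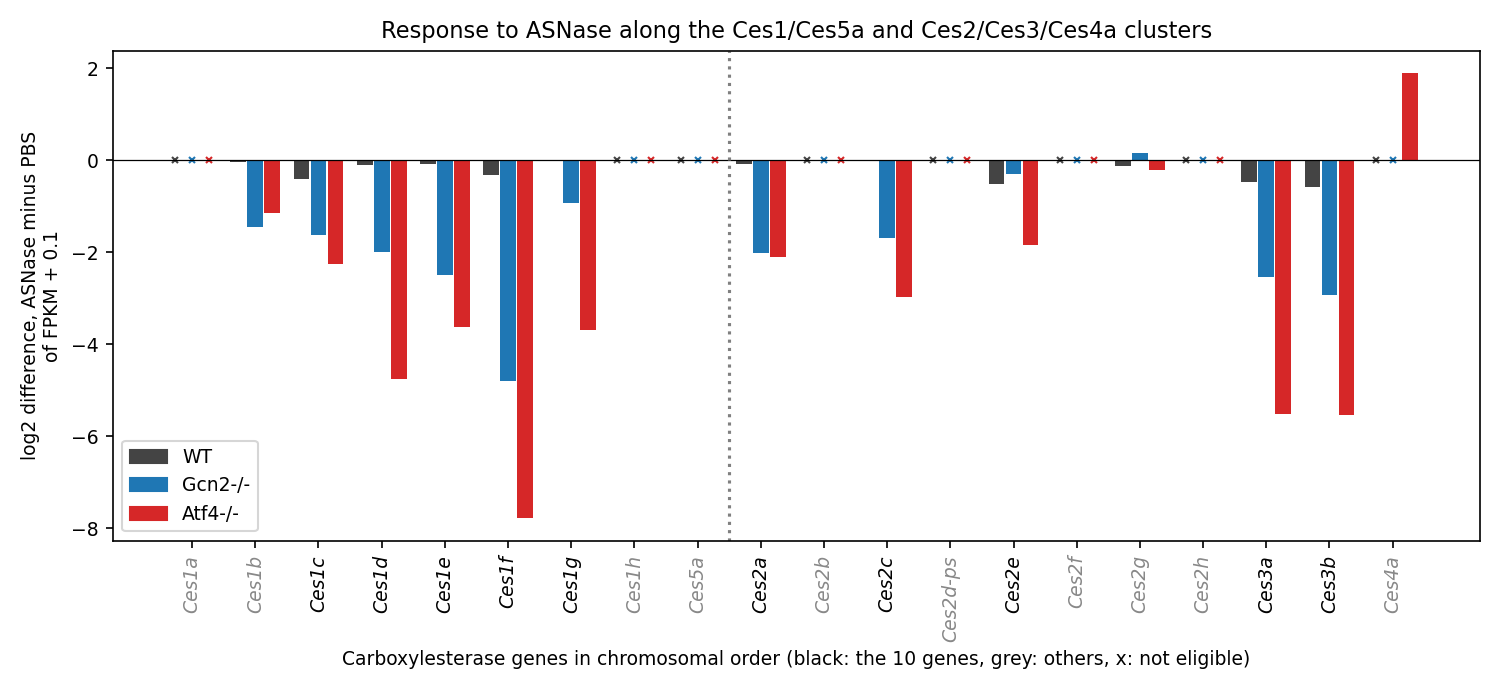
Log2 difference of FPKM + 0.1, ASNase minus PBS (vertical axis), for the carboxylesterase genes in chromosomal order (horizontal axis), with the dotted line between the 2 clusters and a cross where a gene was not eligible. *Ces2g* stays near 0 in all 3 strains between *Ces2e* and *Ces3a*, and *Ces4a* is the only bar well above 0.

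Other ester and lipid hydrolases of the liver were compared as a list of 12 genes. None was called in WT or *Gcn2*-/- livers, where the list's median was -0.11 and -0.89. In *Atf4*-/- livers, where 4.63% of all eligible genes were called lower, 6 of 12 fell, with a list median of -1.49. They were *Lipc* (hepatic lipase), from 103 to 9.32 FPKM, *Aadac* (arylacetamide deacetylase), from 432 to 82.0, *Pon1* (paraoxonase), from 695 to 134, *Mgll* (monoacylglycerol lipase), from 39.8 to 9.03, *Nceh1* (neutral cholesterol ester hydrolase), from 9.35 to 2.44, and *Lipa* (lysosomal acid lipase), from 78.8 to 23.8. The other 6 were not called, and of these *Pnpla2* (adipose triglyceride lipase), at 36.0 and 79.2 FPKM, and *Pon2*, at 24.8 and 25.9 FPKM, had positive log2 differences of 1.14 and 0.07. Set beside this list, the median of the 10 carboxylesterases was lower in both knockout strains. In WT both medians, -0.11 for this list and -0.21 for the carboxylesterases, were near 0, and no gene of either was called. Of 6 partners of the carboxylesterases in VLDL assembly and the endoplasmic reticulum (*Apob*, *Mttp*, *Cideb*, *Sar1b*, *Tm6sf2* and *Gusb*), 0 were called in any strain, and *Apob*, the protein of VLDL, was at 927 FPKM in *Atf4*-/- PBS and 662 in *Atf4*-/- ASNase.

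Among 10 known regulators of carboxylesterase genes, 1 fell in each knockout strain and none in WT. Of all eligible genes 2.13% were called lower in *Gcn2*-/- and 4.63% in *Atf4*-/- livers. *Nr0b2*, the nuclear receptor SHP, which represses other nuclear receptors, went from 32.3 to 11.1 FPKM in *Gcn2*-/- and from 24.3 to 1.03 in *Atf4*-/- livers. *Ppara*, the fatty acid receptor, was at 43.8 FPKM in *Atf4*-/- PBS and 8.52 in *Atf4*-/- ASNase and was not called. *Hnf4a*, the hepatocyte nuclear receptor, was at 165 and 213 FPKM in the same groups.

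**Figure D5:**
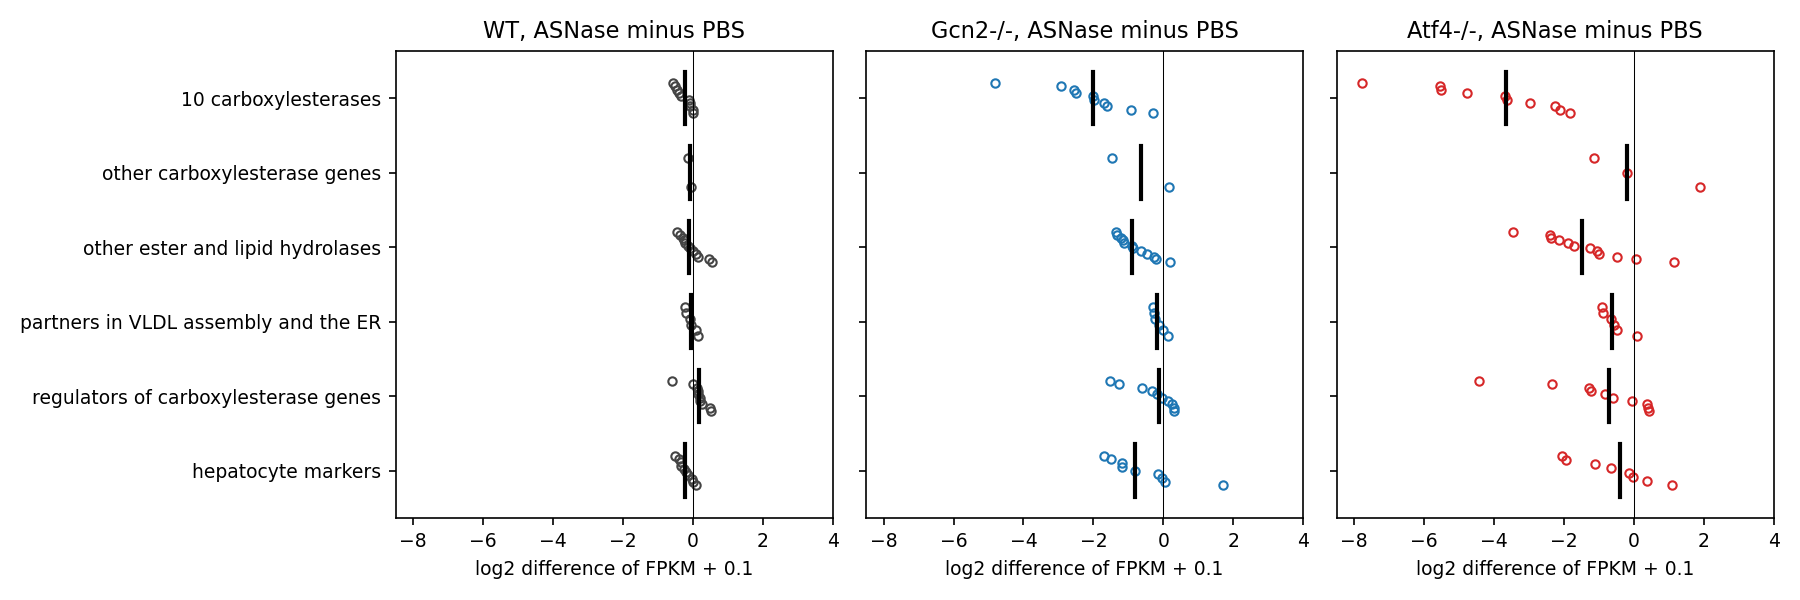
Log2 difference of FPKM + 0.1, ASNase minus PBS (horizontal axis), of each eligible gene (circles) in 6 lists (vertical axis), with the list median as a black bar and 1 panel per strain. The carboxylesterase median is the lowest of the 6 in *Gcn2*-/- (-2.005) and *Atf4*-/- livers (-3.66), and the 6 medians lie near 0 in WT.

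The tissue and the groups were checked on marker lists. The hepatocyte markers *Ahsg*, *Apoa1*, *Apoa2*, *Asgr1*, *Cps1*, *Hnf4a*, *Tat* and *Ttr* were estimated in all groups, while *Alb* and *Trf* had no estimate in any group and *Fgb* and *Serpina1a* lacked one in some. Of the 12 hepatocyte markers 0 were called after ASNase in any strain, but those without an estimate could not be called. The median of those eligible was -0.80 in *Gcn2*-/- and -0.40 in *Atf4*-/- livers, beside -2.005 and -3.66 for the carboxylesterases. These medians join markers that differed in both directions. In *Atf4*-/- livers *Ttr* (transthyretin) and *Apoa2* had log2 differences of -2.05 and -1.94, close to those of *Ces2a* (-2.10) and *Ces2e* (-1.84), while *Tat* (tyrosine aminotransferase) and *Hnf4a* had 1.08 and 0.37. In *Gcn2*-/- livers *Apoa1* and *Ttr* had -1.69 and -1.501, and *Tat* 1.70. The marker differences over 1.5 in size were not called because their intervals overlapped. Gene-level FPKM does not resolve the deleted part of a gene, so it does not check the genotypes. *Eif2ak4*, which encodes GCN2, was at 2.19 to 3.14 FPKM in the 6 groups. *Atf4* was at 29.3 to 32.3 FPKM in the *Atf4*-/- groups and 50.4 to 68.1 in the others. The paper did check the deletions, and reports read density plots that lacked a *Gcn2* exon or *Atf4* in the respective knockout mice.

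Markers of the zones of the liver lobule also differed. The 8 pericentral markers summed to 5388, 4239.9 and 6010.2 FPKM with PBS in the WT, *Gcn2*-/- and *Atf4*-/- strains and to 5368, 2724 and 1418 FPKM with ASNase. The median difference of the 6 eligible was -0.44 in *Gcn2*-/- and -2.08 in *Atf4*-/- livers, and *Cyp1a2*, a cytochrome P450 of pericentral hepatocytes, fell in both (from 159 to 40.1 FPKM and from 256 to 23.8 FPKM). The 8 periportal markers summed to 5957, 6822 and 5055 FPKM with PBS and to 5856, 4829 and 3097 FPKM with ASNase, with medians of -0.82 in *Gcn2*-/- and -0.91 in *Atf4*-/- livers. Of these *Cyp2f2* fell in *Atf4*-/- livers, from 506 to 29.2 FPKM. The part of the zones in the carboxylesterase results was not tested.

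The 7 macrophage markers measured summed to 234, 158 and 270.2 FPKM with PBS in the WT, *Gcn2*-/- and *Atf4*-/- strains and to 131, 210.5 and 168 FPKM with ASNase. Among them *Marco*, a scavenger receptor, rose in both knockout strains (from 8.32 to 118 FPKM in *Gcn2*-/- and from 9.22 to 67.3 in *Atf4*-/- livers), and *Cd5l* fell in *Atf4*-/- livers, from 91.6 to 31.3 FPKM. *Clec4f*, a Kupffer cell lectin, was not called, at 67.3 and 15.9 FPKM in the *Gcn2*-/- groups and 102 and 30.1 FPKM in the *Atf4*-/- groups. Further calls among immune and stromal markers were *Ighm* (B cells), which fell in both knockout strains, *S100a9* (neutrophils), which fell in *Gcn2*-/- livers, and *Col3a1* (stellate cells), which fell in *Atf4*-/- livers, while 0 of 8 endothelial and 0 of 6 cholangiocyte markers were called.

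Markers of other tissues differed between groups. The summed level of 12 skeletal muscle markers was 955, 6.14 and 76.9 FPKM in WT, *Gcn2*-/- and *Atf4*-/- livers under PBS, and 1366, 9.18 and 180 FPKM after ASNase. Lung epithelium markers summed to 137 FPKM in WT PBS and to at most 3.41 elsewhere, and 10 pancreatic acinar markers to 354 FPKM in *Atf4*-/- ASNase, 69.0 in WT ASNase and at most 16.1 elsewhere. The 10 adipocyte markers summed to 29.5 FPKM in *Gcn2*-/- PBS and 84.8 in *Gcn2*-/- ASNase, and to between 28.6 and 77.7 in the other groups, and *Fabp4*, the fatty acid binding protein of adipocytes and endothelium, rose in *Gcn2*-/- livers, from 19.3 to 74.8 FPKM. The median adipocyte marker was at 0.465 and 0.274 FPKM in these groups, and 6 of 10 were under 1 FPKM in each. The 8 intestinal epithelium markers, of which 5 were under 1 FPKM in every group, summed to 212 FPKM in *Gcn2*-/- PBS, 375 in *Gcn2*-/- ASNase and between 120.5 and 174 elsewhere, and *Fabp2* fell in both knockout strains. The higher sum in *Gcn2*-/- ASNase came from *Apoa4*, an apolipoprotein that liver also makes, at 60.8 FPKM in *Gcn2*-/- PBS and 306 in *Gcn2*-/- ASNase, while the list's median was 0.130 and 0.0866 FPKM. The 8 kidney tubule markers summed to at most 1.26 FPKM in any group. The part of other cell types and tissues in the carboxylesterase results was not tested.

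Some genes known for higher expression in male liver also fell. Of 11 listed, 4 fell after ASNase in *Gcn2*-/- livers (*Cyp4a12a*, *Cyp4a12b*, *Hsd3b5* and *Slco1a1*) and 6 in *Atf4*-/- livers (the same with *Elovl3* and *Mup20*). The shares of all eligible genes called lower were 2.13% in *Gcn2*-/- and 4.63% in *Atf4*-/- livers. The number of males was equal under PBS and ASNase within each of these strains. The 11 listed include genes of the Y chromosome, none of which is among those that fell. *Hsd3b5*, a steroid dehydrogenase of male liver, went from 13.1 to 0.180 FPKM in *Gcn2*-/- and from 105 to 0.167 in *Atf4*-/- livers. Of 10 female liver genes 2 fell in *Gcn2*-/- and 4 in *Atf4*-/- livers, against the same 2.13% and 4.63% of all eligible genes. *A1bg* and *Acot3* fell in both strains. In WT, where the sexes were not matched between injections, *Sult3a1* of the female list fell from 30.2 to 1.73 FPKM. The part of sex in the carboxylesterase result was not tested, because the table has no value per mouse.

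Over the 6 groups, the profile of each carboxylesterase was compared with 10162 other genes by the root mean square distance of log2 values after centring. Closest to the mean profile of the 10 genes was *Gm4956* (distance 0.18), followed by *Cyp4f14* (0.19), *Cyp2c44* (0.21), *Rdh16* (0.21) and *Srd5a1* (0.23). *Cyp4f14*, a cytochrome P450 of fatty acid metabolism, was measured at 136, 110.2 and 115 FPKM under PBS in WT, *Gcn2*-/- and *Atf4*-/- livers and 102, 23.7 and 8.23 FPKM after ASNase. For single members the closest genes were *Lactb2* for *Ces1c* (0.09), *Srd5a1* for *Ces1d* (0.21), *Rdh16* for *Ces1e* (0.12), *2810007J24Rik* for *Ces1f* (0.31), *Col3a1* for *Ces1g* (0.23), *Ltbp4* for *Ces2a* (0.14), *Serpinb1a* for *Ces2c* (0.39), *Acacb* for *Ces2e* (0.18), *Gamt* for *Ces3a* (0.22) and *Car1* for *Ces3b* (0.19). Among the members themselves the 45 pairs had profile correlations from 0.82 to 0.99 over 6 groups, with a median of 0.97 within and 0.92 between subfamilies. These distances describe 6 values that come from the same 18 libraries.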

How the data were processed

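RNA-Seq of liver covered 18 mice in 6 groups of 3, grouped by the labels. The authors sequenced poly-A RNA as single-end reads, used TopHat and Bowtie for alignment to mm10, built a merged transcript set with Cufflinks and Cuffmerge, and ran Cuffdiff for the expression values. The deposited table holds FPKM values, scaled by the authors for transcript length and library depth, with interval bounds in FPKM and a status (another kind of value the authors deposited), 1 of each per gene and group. All columns were mapped to a group and 0 were left out. Reads per gene and values per library were not used here. The paper lists the reads of each library, but the number behind a single value is unknown here. A planned linear model needs values per library and could not be fitted.

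Groups were compared with the calling rule given above, using Python 3.11.15, pandas 2.3.3, numpy 2.4.6 and scipy 1.17.1, and the rule was tested on simulated data. A pseudocount of 0.1 understates the change of low genes. Genes named are the 10 members, list genes that were called or are among the 2 highest of their list, neighbours and the closest profiles. Further genes named with values (*Ppara*, *Hnf4a*, *Gusb*, *Pnpla2*, *Pon2* and those in a list of estimated markers) were chosen with their values seen. The members and all 21 gene lists were chosen with earlier results of these data known. Symbols were matched to GENCODE by Ensembl identifier. Alternatives were other pseudocounts, FPKM minimums, fold and interval conditions, median-ratio scaling and the inclusion of genes listed at 0.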

Additional observations from a re-analysis of the deposited data

How the results depend on the processing

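The number of carboxylesterases called was recomputed in the 9 comparisons of groups under 9 alternatives, which gave 81 counts, of which 4 moved by over 1.5 times. With no condition on the intervals, the count was 8 in place of 5 for *Gcn2*-/- ASNase against *Gcn2*-/- PBS (*Ces1c*, *Ces1d* and *Ces2c* added), 8 in place of 5 for *Gcn2*-/- ASNase against WT ASNase, and 1 in place of 0 (*Ces2c*) for *Gcn2*-/- PBS against WT PBS. With the combined interval it was 8 in place of 5 for *Gcn2*-/- ASNase against WT ASNase. These alternatives ask less of the intervals by construction. The counts for ASNase against PBS stayed at 0 in WT, between 5 and 8 in *Gcn2*-/- and between 8 and 10 in *Atf4*-/- livers under the 9 alternatives. All genes called, in both directions, went from 80 to 134 in WT, from 340 to 607 in *Gcn2*-/- and from 699 to 1160 in *Atf4*-/- livers with no interval condition, and in WT to 124 with no FPKM minimum and to 179 with genes listed at 0 included. The 90 log2 differences of the members kept their size within their errors in all 270 recomputations. The largest shift was 0.87, with a pseudocount of 1, and median-ratio scaling moved them by at most 0.07.

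No paired analysis was possible because the table holds 1 value per group, and leaving out each replicate in turn could not be run for the same reason. The width of the Cuffdiff intervals limits what can be called, most of all for *Ces2c* and *Ces1c*.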

Other observations

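A pair of carboxylesterase genes outside the 10 had their highest level in WT ASNase and were near or at 0 in the other groups. *Ces1h* was at 1.56 FPKM in WT ASNase, was listed at 0 in the 3 PBS groups and was at most 0.0323 in the other ASNase groups. *Ces2f* was at 0.365 FPKM in WT ASNase, was listed at 0 in 4 groups and was at 0.0231 in *Atf4*-/- ASNase. *Capns2*, a calpain small subunit gene within 200 kb of the Ces1 cluster, was at 1.17 FPKM in WT ASNase and at most 0.116 elsewhere. The values were noticed after they had been seen, lie under the FPKM minimum of 3 and were not compared.

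Under PBS the summed levels of the subfamilies in WT, *Gcn2*-/- and *Atf4*-/- livers were 2734, 2518 and 2390.4 FPKM for the 5 Ces1 genes, 428, 261 and 276 for the 3 Ces2 genes and 897, 817 and 929 for the Ces3 pair. After ASNase they were 2203, 711 and 378 for Ces1, 383, 96.6 and 63.7 for Ces2 and 641, 129 and 20.0 for Ces3. The Ces3 pair was thus lower in sum than the Ces2 genes in *Atf4*-/- ASNase, and higher in the other 5 groups.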
